A study of Homo sapiens with 2 samples.

Results

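Keratin and keratin-associated genes were taken as the protein-coding genes of the hg38 annotation with a symbol of KRT and a number or beginning KRTAP. This gave 149 of 19970 protein-coding genes, 55 keratins and 94 keratin-associated protein genes. The other 175 annotation entries with such symbols are not protein-coding and were left out. Chromatin accessibility was measured by ATAC-seq, in which a transposase cuts open DNA. The cells were of WIBR3, a line of human embryonic stem cells. There were 2 libraries, 1 of primed cells, the usual culture state of human embryonic stem cells, and 1 of hTBLC, a name that the labels do not spell out. Both are labelled as WIBR3 embryonic stem cells, and the labels name no treatment, time or genotype for either. With 1 library a group there is no replicate check and no test between conditions, and every interval below is at 95% and covers counting error only.

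Keratins form the intermediate filaments of epithelial cells, and each filament pairs a type I with a type II keratin. Most type II genes lie side by side on chromosome 12 and most type I genes on chromosome 17, with KRT18, a type I gene, beside its partner KRT8 on chromosome 12. KRT8, KRT18, KRT19 and KRT7 serve simple, single-layered epithelia, and KRT8 and KRT18 are also known from embryonic stem cells and the early embryo. KRT5 and KRT14 mark the basal layer of the epidermis and KRT1 and KRT10 the layers above it. Hair keratins build the hair shaft, inner root sheath keratins the sheath around it, and the small keratin-associated proteins crosslink the filaments of the hair shaft.

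The primed list held 295753 peaks and the hTBLC list 299673. Within a library, peaks that overlapped or touched were merged, which left 242009 primed and 250859 hTBLC regions. The height of a peak is given as its pileup, the number of units stacked at the summit, solved from the deposited values. Whether these units are whole fragments or single read ends is not given. Pileups had a median of 18 in primed and 17 in hTBLC. Depth was known only through the most frequent lowest background, 1.79 in primed and 1.96 in hTBLC, and ratios of hTBLC to primed pileup were scaled by their quotient, 1.09. Both libraries held regions near all 6 pluripotency markers examined, but not at equal height. At the strongest shared site, NANOG had 60 in primed and 29 in hTBLC, a ratio of 0.44 (0.27 to 0.70), and PRDM14 127 and 65, a ratio of 0.47 (0.34 to 0.64). SOX2 had 116 and 85, POU5F1 107 and 105, and LIN28B 75 and 107, and the ratio of SALL4 was 0.86 (0.66 to 1.12), while at the gene end of POU5F1 only primed had a region (pileup 37).

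A region belonged to a gene where the summit of one of its peaks lay in the gene body or within 10 kb of it. Of the 149 genes, 86 had a primed region and 89 an hTBLC region, against 94.6% and 94.7% of all protein-coding genes. Regions of both libraries were found at 72 genes (48.3%, against 93.6% of all protein-coding genes) and of neither at 46 (30.9%, against 4.28%). Primed regions alone were found at 14 of the 149 genes and hTBLC regions alone at 17, where 1.06% and 1.08% of all protein-coding genes met the same rules. Neighbouring members can rest on the same site and are not separate observations. At 11q13, 3 genes had hTBLC regions alone through 1 site of pileup 8. The highest pileups ran from 8 to 28 at the 14 genes and from 7 to 16 at the 17, where the lowest of any peak is 6 in primed and 7 in hTBLC. The order of the 14 and 17 depended on the setting. It turned to 20 and 5 genes without peaks under a −log10 q of 5, and to 14 and 5 without those under 10. Wider windows of 25 kb gave 7 and 3. The order was kept with gene bodies alone, at 8 and 12, and with windows of 5 kb, at 14 and 15. The windows of these genes are short, with a median of 21.1 kb against 44.2 kb for all genes, and counts per length of window are given below.

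Overlapping regions of both libraries were joined into sites, each counted once although 80 sites fell in the windows of more than 1 member. The 149 genes held 218 sites, of which 92 were shared, 69 primed-only and 57 hTBLC-only. The shared part was 42.2% (Wilson interval 35.8% to 48.8%) against 46.0% of sites near all protein-coding genes. Primed-only sites made up 31.7% and hTBLC-only sites 26.1%, against 28.1% and 25.9%. These shares were close to those near all genes. Of the sites in 1 library alone, 45.2% were from hTBLC, against 47.9% near all genes. When peaks under a −log10 q of 5 were dropped from each list, 46 sites were primed-only and 22 hTBLC-only, 32.4% from hTBLC against 42.4% near all genes. At a minimum of 10, 39 sites were primed-only and 12 hTBLC-only, 23.5% from hTBLC against 43.9%. In these cut lists a site also counts as in 1 library alone where the other library's peak fell under the minimum. Such sites are shared in the full lists, so the cut counts partly restate differences in height. Of the 69 primed-only and 57 hTBLC-only sites of the full lists, 11 and 6 reached a −log10 q of 10.

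Per 100 kb of window, the 4 simple-epithelium keratins held 18.9 sites in primed and 18.9 in hTBLC. The 140 genes of the hair and skin clusters held 6.06 and 5.48, and all protein-coding genes 9.82 and 9.52. Skin and stratified-epithelium keratins stood at 8.98 in primed and 7.67 in hTBLC, and hair shaft keratins at 8.17 and 7.88, both below all genes. Inner root sheath keratins had 2.80 and 4.47 sites per 100 kb. The keratin-associated genes ranged from 0.94 in primed and 1.25 in hTBLC at the chromosome 17 locus to 11.5 and 8.03 at 11p15. The simple keratins were thus the densest of the classes in both libraries, and the keratin-associated genes of chromosome 17 the sparsest. The epidermal differentiation complex, a cluster of barrier genes on chromosome 1 that holds loricrin and filaggrin, stood at 3.20 and 3.30 sites per 100 kb, and 27 of its 46 genes (58.7%) had no region in either library.

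**Figure D1:**
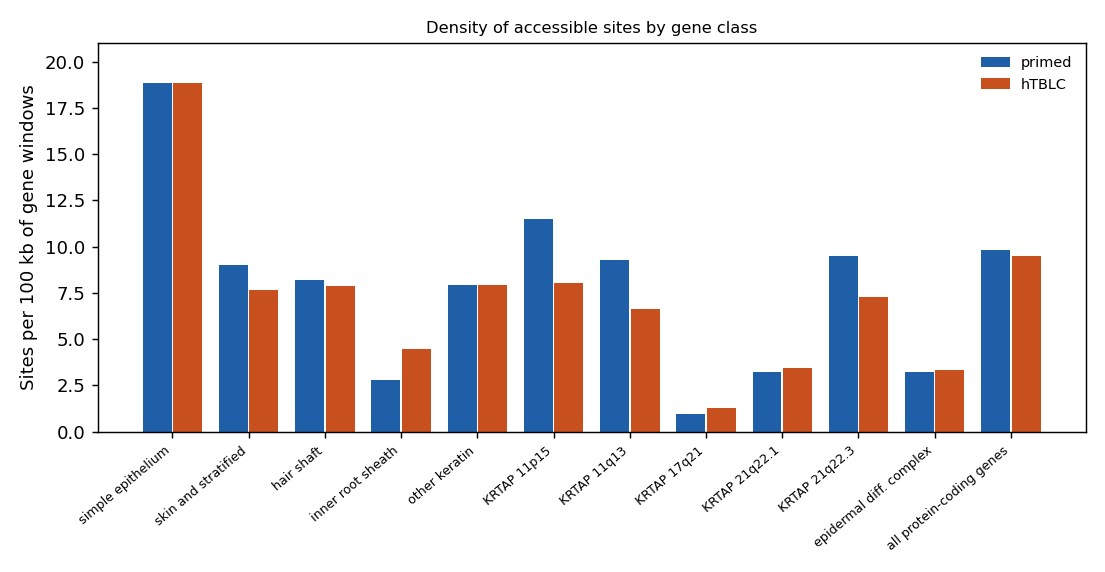
Accessible sites per 100 kb of gene windows (bars from 0) for each class of keratin and keratin-associated genes, the epidermal differentiation complex and all protein-coding genes, in the primed and the hTBLC library. Simple-epithelium keratins stand at 18.9 in both libraries, and the keratin-associated genes of 17q21 at 0.94 and 1.25.

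All 4 simple-epithelium keratins had regions in both libraries. KRT7 is a type II keratin of ducts and of trophoblast. Its window held 4 shared, 7 primed-only and 4 hTBLC-only sites. The site over the lower-coordinate end of the gene, chr12:52232587-52233379, had a pileup of 30 in primed and 13 in hTBLC, a scaled ratio of 0.40 (interval 0.19 to 0.78). The next site within the gene body, chr12:52233562-52234169, had 50 and 14, a ratio of 0.26 (0.13 to 0.47). Both KRT7 sites were lower in hTBLC, and the intervals of the ratio lie below 1. At the latter site the ratio of the authors' fold enrichments, which divide each summit by its local background, was 0.53, and the strongest summits of the libraries lay 337 bp apart. Further in, the site at chr12:52249949-52250658 had 26 and 16, a ratio of 0.56 (0.28 to 1.09), and the one beyond the other end of the gene, at chr12:52258264-52258903, had 16 and 23, a ratio of 1.31 (0.66 to 2.66). Neither of these differed beyond counting error.

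KRT19, the smallest keratin, forms filaments with KRT8 and KRT7. At its higher-coordinate end, chr17:41528147-41528677, the pileup was 80 in primed and 27 in hTBLC, a scaled ratio of 0.31 (0.19 to 0.48). A site in the gene body, chr17:41527090-41527992, had 38 and 13, also a ratio of 0.31 (0.15 to 0.60). The third shared site, outside the gene at chr17:41536166-41536424, had 19 and 14, a ratio of 0.67 (0.31 to 1.42), which did not differ beyond counting error. By the authors' fold enrichments the ratio at the gene end was 0.56. KRT19 also had 1 primed-only and 4 hTBLC-only sites. The gene-end site and the one in the gene body lie within 10 kb of KRT15 too, a basal-layer keratin and the neighbour of KRT19.

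KRT8 and KRT18 adjoin on chromosome 12, where the annotation gives KRT8 the span chr12:52897191-52949860 and KRT18 chr12:52948855-52952906. Together their windows held 10 shared sites. The tallest of them, chr12:52945252-52946181, lies before KRT18 and had a pileup of 82 in primed and 119 in hTBLC, the highest hTBLC pileup near any of the 149 genes. Its scaled ratio was 1.33 (0.99 to 1.78), so the libraries did not differ there beyond counting error. At the start of KRT18 itself, chr12:52948725-52949236, the pileups were 72 and 41, a ratio of 0.52 (0.35 to 0.77). Just inside KRT18, at chr12:52949636-52950035, they were 25 and 35, a ratio of 1.28 (0.74 to 2.23). Of these 3 sites around KRT18, the one at its start was lower in hTBLC beyond counting error and the other two were not.

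The same mix was seen along KRT8. The site at chr12:52904931-52905486 had 73 in primed and 37 in hTBLC, a scaled ratio of 0.46 (0.30 to 0.70). At chr12:52925622-52926637, which touches the listed RefSeq promoter window of KRT8, inside the gene, the pileups were 43 and 22, a ratio of 0.47 (0.27 to 0.80). Between them, at chr12:52920865-52921674, the primed pileup was 21 and the hTBLC pileup 43, a ratio of 1.87 (1.09 to 3.32), higher in hTBLC beyond counting error but short of 2-fold. Close to the first of these sites, chr12:52903337-52904319 had 43 and 49, a ratio of 1.04 (0.68 to 1.61). Over the 10 shared sites of KRT8 and KRT18 the interval lay below 1 at 3, above 1 at 1 and included 1 at 6.

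**Figure D2:**
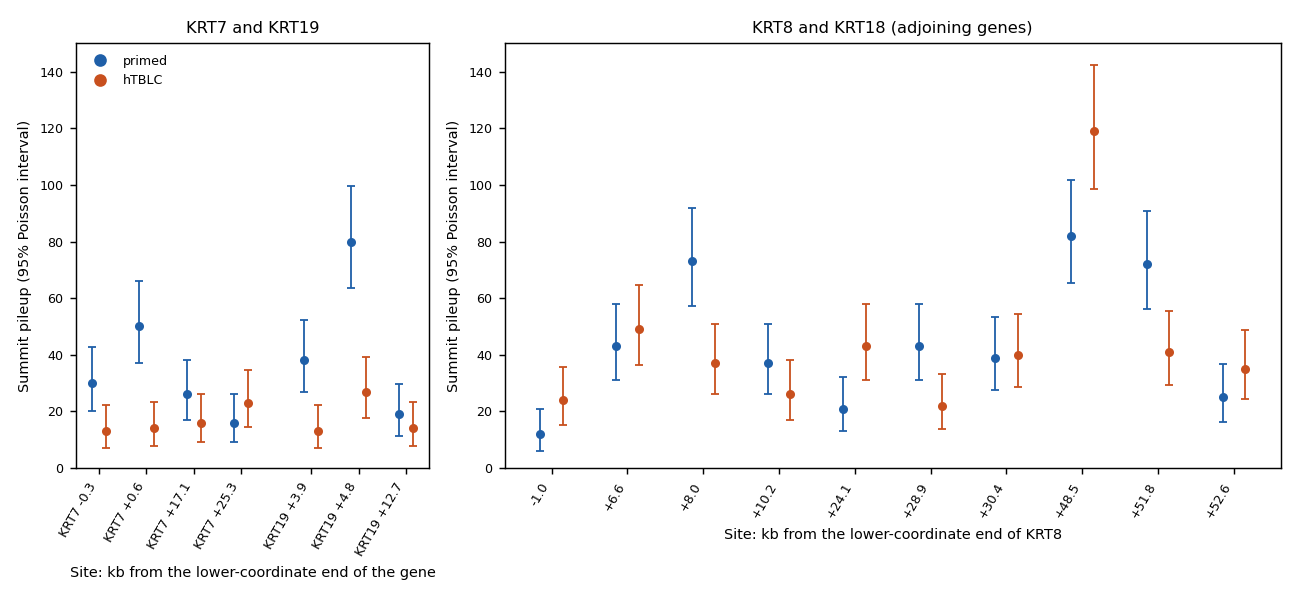
Summit pileup with 95% Poisson interval in primed and hTBLC at every shared site in the windows of KRT7 and KRT19 (left) and of KRT8 and KRT18 (right), by distance of the site's middle in kb from the lower-coordinate end of the gene. The sites lying over an end of KRT7 and of KRT19 are lower in hTBLC (30 to 13, and 80 to 27). The tallest site of KRT8 and KRT18 reads 82 in primed and 119 in hTBLC.

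Across all 149 genes, a shared site was called past the fold where the scaled ratio was at least 2 or at most 0.5 and its interval excluded 1. Of the 92 shared sites, 24 (26.1%) were called lower in hTBLC, against 12.1% of the shared sites near all protein-coding genes. Only 2 (2.17%) were called higher in hTBLC, against 5.69%. The median scaled ratio was 0.75, against 0.91 near all genes (0.82 against 1 with no scaling), and 65 of the 92 ratios (70.7%) lay below 1, against 57.8%. With no scaling 19 sites were called lower (20.7%, against 9.57% near all genes) and 3 higher (3.26%, against 7.60%). By the authors' fold enrichments, with no interval, 13 were lower (14.1%, against 6.68%) and 1 higher (1.09%, against 3.79%). Among the 68 shared sites with a −log10 q of at least 10 in 1 library or more, all 24 and 2 calls remained (35.3% and 2.94%, against 16.1% and 7.68%). A called site is tall in 1 library and tends to pass this filter through that library, so this setting is no check on the calls. Among the 79 with summits of the libraries within 100 bp, 22 were lower (27.8%, against 12.1%) and 0 higher, against 5.53%. The 24 sites had primed pileups from 28 to 83, and 9 of them had their summit in the body of a member.

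Simple keratins and hair and skin clusters both had more sites called lower than higher in hTBLC. So had all protein-coding genes, with 12.1% of shared sites called lower and 5.69% higher and a median ratio of 0.91. Among the 17 shared sites of the simple keratins 6 were called lower in hTBLC (35.3%, Wilson interval 17.3% to 58.7%), with a median ratio of 0.64. Among the 68 of the hair and skin clusters 19 were (27.9%, 18.7% to 39.6%), with a median ratio of 0.78. The 2 KRT19 sites near KRT15 count in both classes, and without them the hair and skin clusters had 17 of 66 (25.8%, 16.7% to 37.4%). A difference between the classes was not tested, since neighbouring sites of 1 library are not replicates.

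**Figure D3:**
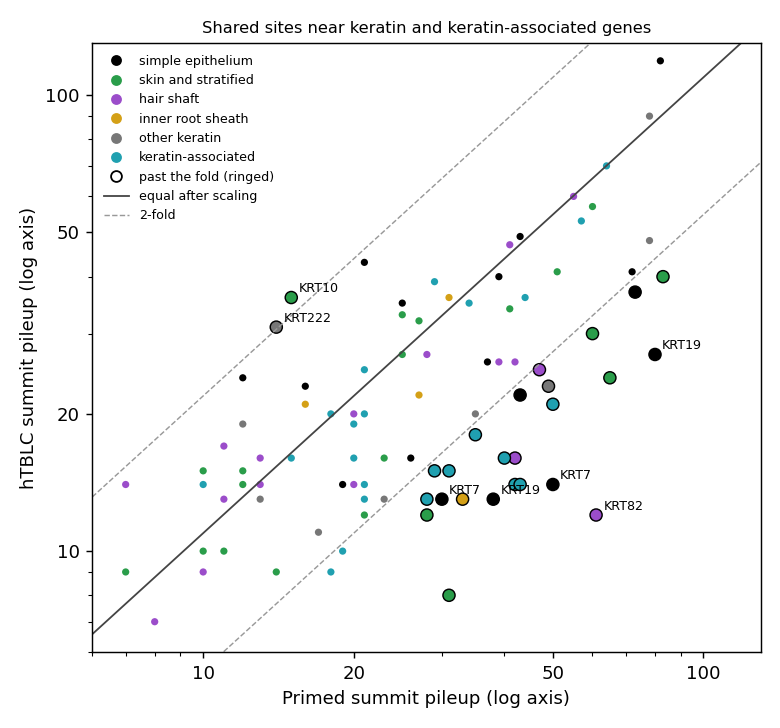
Primed against hTBLC summit pileup (both log axes) at the 92 shared sites, coloured by gene class, with the line of equal scaled pileup, dashed lines at 2-fold and rings on the 26 sites called past the fold. Below the lower dashed line lie 24 ringed sites, and KRT10 and KRT222 are the 2 above the upper one.

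Among the type II keratins of skin, KRT6A, KRT6B and KRT75 are made in the hair follicle companion layer and, for the KRT6 genes, in wounded epidermis. A site near KRT6A, chr12:52496215-52497114, had 65 in primed and 24 in hTBLC, a ratio of 0.34 (0.20 to 0.55). A site between KRT75 and KRT6B, chr12:52442498-52443182, had 83 and 40, a ratio of 0.44 (0.29 to 0.65) and the highest primed pileup near any of the 149 genes. KRT3 and KRT4, keratins of cornea and of oral and oesophageal lining, share a site at chr12:52804988-52805982 with 60 and 30, a ratio of 0.46 (0.28 to 0.72). All of these lie outside the gene bodies. KRT4 and KRT79 also shared the tallest hTBLC-only site of the 149 genes, chr12:52818351-52818774, with a pileup of 35.

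The keratins KRT1, KRT5, KRT10 and KRT14 mark the layers of the epidermis. Near KRT5 the strongest shared site had 41 in primed and 34 in hTBLC, a ratio of 0.76 (0.47 to 1.22), and the site shared by KRT9 and KRT14 had 60 and 57, a ratio of 0.87 (0.59 to 1.27). KRT1 had a single shared site, with 21 and 12, a ratio of 0.52 (0.23 to 1.11). None of these 3 differed beyond counting error. KRT10, the partner of KRT1, had a site in the gene body, chr17:40818703-40819262, with 15 in primed and 36 in hTBLC, a ratio of 2.19 (1.17 to 4.31), where the strongest summits lay 140 bp apart. It is 1 of the 2 sites called higher in hTBLC, and the other one, near KRT222 with 14 and 31, lies at an end of SMARCE1, a chromatin remodelling gene that is no keratin, with summits 261 bp apart.

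The type I keratins KRT12 to KRT17 of stratified linings went several ways. A site between KRT13 and KRT15, chr17:41511107-41511470, had 31 in primed and 8 in hTBLC, a ratio of 0.24 (0.09 to 0.52), and a site in KRT12, a cornea keratin, had 28 and 12, a ratio of 0.39 (0.18 to 0.79). The strongest shared site of KRT16 and KRT17 had 25 and 33, a ratio of 1.21 (0.70 to 2.11), and that of KRT13 had 51 and 41, a ratio of 0.73 (0.47 to 1.13), so that neither differed beyond counting error. Primed-only sites with a −log10 q of at least 10 lay near KRT13 (pileup 24), KRT13 and KRT15 (24), KRT16 (18) and KRT16 and KRT17 (24), the last pair being keratins of activated epidermis. Over all 149 genes, 11 primed-only sites reached that q (5.05% of the 218 sites, against 4.22% near all protein-coding genes) and 6 hTBLC-only sites did (2.75%, against 3.15%). The KRT13 to KRT17 stretch held 4 of the 11. That stretch was singled out after the values were seen, and a concentration there was not tested.

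Hair shaft keratins held the lowest ratio of the 92. A site in the body of KRT82, within 10 kb of KRT84 too, at chr12:52395754-52396209, had a pileup of 61 in primed and 12 in hTBLC, a ratio of 0.18 (0.09 to 0.34). The same 2 genes shared the tallest primed-only site, chr12:52390997-52391275, with a pileup of 43. KRT86 and KRT83 shared a site with 42 and 16, a ratio of 0.35 (0.18 to 0.63), and another with 55 and 60, a ratio of 0.996. On chromosome 17 a site near KRT37 had 47 and 25, a ratio of 0.49 (0.29 to 0.81). KRT39 had 1 site in each library alone, with a pileup of 26 in primed and, elsewhere in its window, 25 in hTBLC. Of the 17 hair shaft keratins 12 had regions in both libraries, and KRT32, KRT33B and KRT34 had none in either.

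Inner root sheath keratins held few sites. The bodies of KRT25 to KRT28 on chromosome 17 lie in a stretch of 64.6 kb, chr17:40738947-40803582, with no region in either library. On chromosome 12, a site shared by KRT72 and KRT73 had 33 in primed and 13 in hTBLC, a ratio of 0.36 (0.17 to 0.70). It was the only 1 of the 4 shared sites of the class called past the fold.

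Of the keratins outside these classes, KRT80, which is found in many epithelia, had 1 shared site with 78 in primed and 90 in hTBLC, a ratio of 1.05 (0.77 to 1.45). Another, chr12:52181375-52182260 in its body, had 49 and 23, a ratio of 0.43 (0.25 to 0.72), and an hTBLC-only site had a pileup of 27. KRT20, an intestinal keratin, and KRT24 had no region in either library. KRT23 had an hTBLC-only site with a pileup of 21. Counted by chromosome, 1 of 27 keratins on chromosome 12 (KRT76) and 7 of 28 on chromosome 17 had no region in either library.

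**Figure D4:**
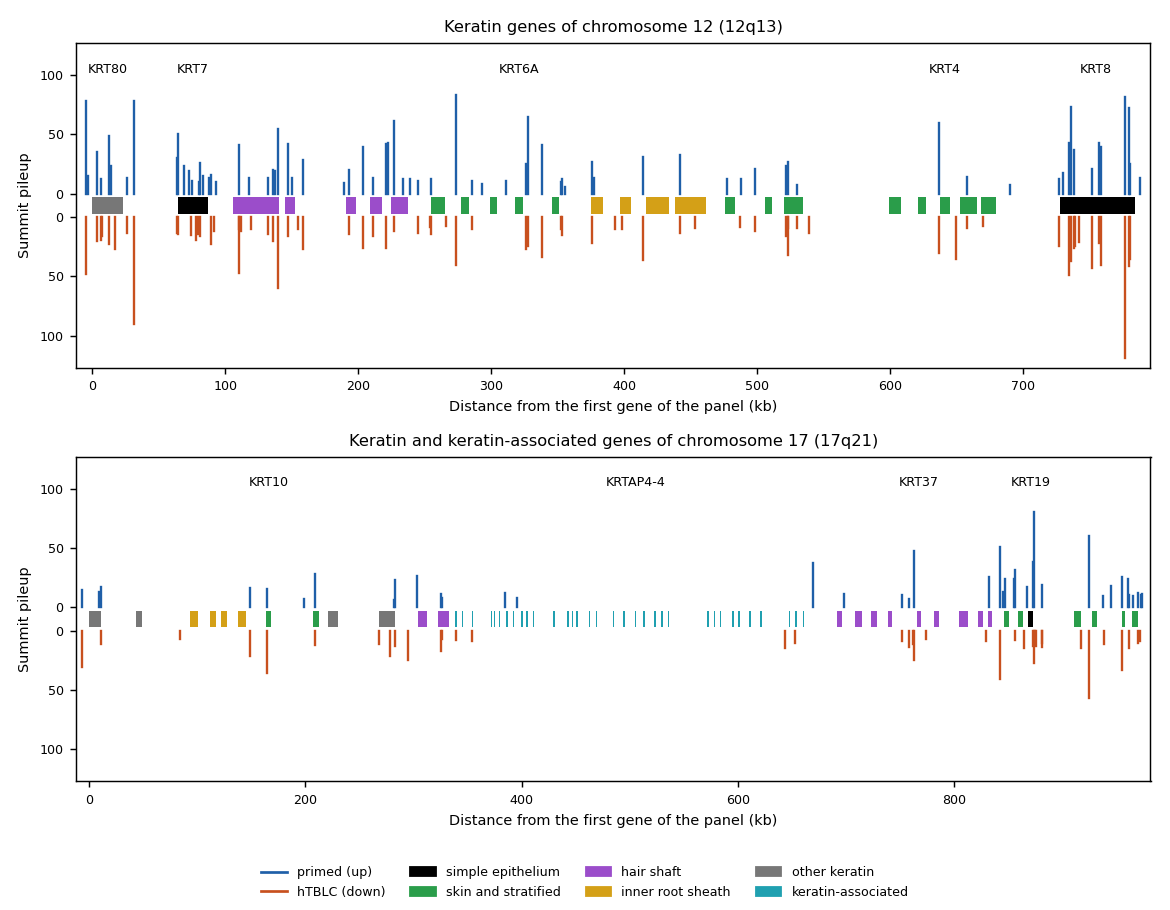
Summit pileup of every site in a gene window along the keratin genes of 12q13 and the keratin and keratin-associated genes of 17q21, with primed upwards, hTBLC downwards and genes as boxes coloured by class, against distance in kb from the first gene of the panel. Sites line the chromosome 12 genes, while the KRTAP4 and KRTAP9 genes in the middle of the chromosome 17 panel have none.

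The keratin-associated loci held very different numbers of sites. On chromosome 17, 22 of 34 had no region in either library, and none of the 7 sites there was shared. The Wilson interval of that share is 0% to 35.4%, against 46.0% of sites near all protein-coding genes. Median pileups there were low, 12 in primed and 9.5 in hTBLC. The tallest of these 7 was primed-only, near KRTAP17-1 at chr17:41324148-41324478, with a pileup of 37. All 20 KRTAP4 and KRTAP9 genes, whose windows cover 196 kb, had no region. A stretch of 155 kb, chr17:41050589-41206036, from KRTAP2-2 to KRTAP9-1, held 16 keratin-associated genes and no region of either library. Among the 336189 gaps between regions only 222 are as long, and the median gap is 4.65 kb. Near-identical copies can keep reads from being placed: 5 of 7 KRTAP9 promoter windows and 2 of 12 KRTAP4 windows share a run of 50 bases with another window. So do 4 of 11 windows of KRTAP10, whose genes all have regions, and how reads were placed was not tested.

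The chromosome 21 genes fall into a sparse and a denser locus. At 21q22.1, 16 of 33 genes had no region in either library, and 7 KRTAP19 genes lie in an empty stretch of 105 kb, chr21:30464032-30568794. There the site shared by KRTAP13-3 and KRTAP13-4 had 64 in primed and 70 in hTBLC, a ratio of 0.9989 (0.70 to 1.42), and one near KRTAP15-1 had 43 and 14, a ratio of 0.30 (0.15 to 0.55). Of the 8 shared sites of the locus only that of KRTAP15-1 was called past the fold. At 21q22.3 all 16 KRTAP10 and KRTAP12 genes had a region in 1 library or both. Of their 25 sites 20 were in 1 library alone, 12 primed-only and 8 hTBLC-only. The shared part was 20% (Wilson interval 8.86% to 39.1%), against 46.0% of sites near all protein-coding genes. The median pileups of these sites were low, 13 in primed and 12 in hTBLC. The shared site of KRTAP10-6 and KRTAP10-7 had 28 and 13, a ratio of 0.42 (0.20 to 0.85). KRTAP10-8 and KRTAP12-1, with primed-only sites of pileup 19 and 28, were the members with regions in 1 library alone at a −log10 q of at least 10.

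The KRTAP5 genes of chromosome 11 had the lowest median ratios of the keratin-associated loci. At 11p15 all 6 had regions in both libraries, and 4 of 7 shared sites (57.1%) were called lower in hTBLC, against 12.1% near all genes. The median ratio of the 7 was 0.47, against 0.91 near all genes. KRTAP5-2 had 42 in primed and 14 in hTBLC at one site, a ratio of 0.30 (0.15 to 0.57), and 29 and 15 at a nearer one, a ratio of 0.47 (0.24 to 0.91). A site near KRTAP5-5 had 50 and 21, a ratio of 0.38 (0.22 to 0.65). The remaining call, 35 and 18 near KRTAP5-1, lies at an end of DUSP8, a phosphatase gene, with summits 688 bp apart. In contrast, the tallest site of the locus, near KRTAP5-6, had 57 and 53, a ratio of 0.85. At 11q13, 2 of 4 shared sites (50%) were called lower. These had 40 and 16 near KRTAP5-10, a ratio of 0.37 (0.19 to 0.67), and 31 and 15 near KRTAP5-11, a ratio of 0.44 (0.22 to 0.84).

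**Figure D5:**
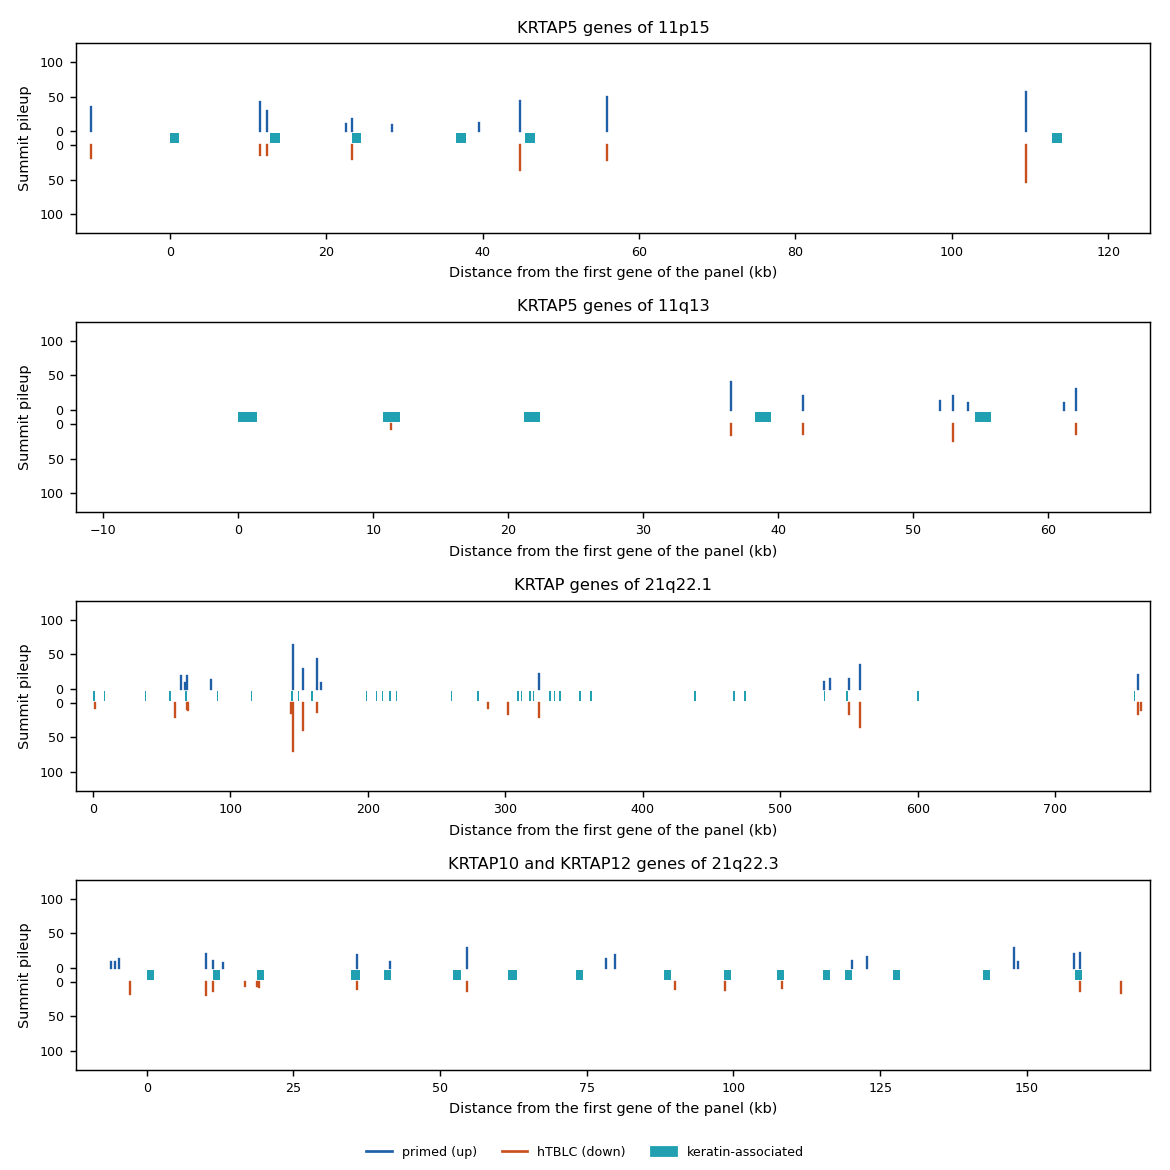
Summit pileup of every site in a gene window along the keratin-associated genes of 11p15, 11q13, 21q22.1 and 21q22.3, with primed upwards, hTBLC downwards and genes as boxes, against distance in kb from the first gene of the panel. At 21q22.1 the tallest lines, 64 and 70, belong to the site of KRTAP13-3 and KRTAP13-4.

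Promoter sequences of 114 of the 149 genes, 118 windows from 250 bases before to 50 after the start, were given by RefSeq (GRCh38.p14). KRT7, KRT18 and KRT19 are not among them. A primed region touched 5 of the 118 and an hTBLC region 6, against 72.5% and 71.9% of the 22131 windows of protein-coding genes, and of these 118 only that of KRT8 was touched by both. hTBLC regions alone touched the windows of KRTAP3-1 (pileup 9), KRT9 (15), KRTAP24-1 (7), KRTAP13-3 (15) and KRTAP10-10 (12). Primed regions alone touched those of KRTAP23-1 (9), KRTAP8-1 (10), KRTAP10-5 (9) and KRTAP10-12 (20). Windows touched in 1 library alone occur among all protein-coding genes too. Of the 22131 windows, primed regions touched 16045, hTBLC regions 15921 and both libraries 15177. The touches in 1 library alone are therefore listed as a description and not read as a trait of keratin genes. The KRT8 window had 43 in primed and 18 in hTBLC, so its primed pileup stood above all of these and its hTBLC pileup did not stand apart from them. That window is the single one listed for KRT8 and lies inside the gene, away from both ends of its span. At 108 of the 118 listed starts neither library had a region.

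The promoter letters themselves differ from those of most genes. The median GC content was 43.8% against 62.3% for protein-coding genes, and the median number of CpG 2 against 21. The TATA box letters TATAAA were found, on either strand, in 85 of 118 windows (72.0%) against 9.46%, and the GC box letters GGGCGG in 7 (5.93%) against 56.3%. CCAAT was found in 43.2% against 34.6%, the LEF1/TCF letters CTTTGA in 30.5% against 10.98%, the AP-1 letters TGANTCA in 5.93% against 6.15% and the GRHL letters AACCNGTT in 0.85% against 1.66%. The letters of no motif contain those of another, and a match is a description of letters, not of binding. Among the 5342 protein-coding windows that neither library touched, keratin windows included, 20.8% held TATAAA, 20.8% held GGGCGG and the median GC content was 49.7%. Of the 108 untouched keratin and keratin-associated windows, 79 (73.1%) held TATAAA, a share above that of all untouched windows.

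The 250 bases before the start are shown for 7 genes, 5′ to 3′ on the strand of the gene, with the letters of a listed motif, on either strand, in capitals. KRT8 is the window touched by both libraries, KRT9 and KRTAP13-3 are touched in hTBLC alone and KRTAP8-1 in primed alone. KRT10, KRT31, a hair shaft keratin, and KRTAP4-4, of the empty stretch of chromosome 17, are touched in neither.
KRT8 (chr12:52926470-52926719, minus strand): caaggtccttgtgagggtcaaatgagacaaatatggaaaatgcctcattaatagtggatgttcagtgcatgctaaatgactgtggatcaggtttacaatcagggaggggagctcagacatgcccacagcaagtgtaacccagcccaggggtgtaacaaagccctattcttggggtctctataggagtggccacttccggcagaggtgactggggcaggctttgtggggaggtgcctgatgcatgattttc
KRT9 (chr17:41572060-41572309, minus strand): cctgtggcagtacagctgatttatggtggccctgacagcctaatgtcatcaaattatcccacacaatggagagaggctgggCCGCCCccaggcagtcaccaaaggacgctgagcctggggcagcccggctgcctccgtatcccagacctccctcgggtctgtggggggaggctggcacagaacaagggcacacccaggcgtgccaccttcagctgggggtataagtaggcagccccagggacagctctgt
KRTAP13-3 (chr21:30425927-30426176, minus strand): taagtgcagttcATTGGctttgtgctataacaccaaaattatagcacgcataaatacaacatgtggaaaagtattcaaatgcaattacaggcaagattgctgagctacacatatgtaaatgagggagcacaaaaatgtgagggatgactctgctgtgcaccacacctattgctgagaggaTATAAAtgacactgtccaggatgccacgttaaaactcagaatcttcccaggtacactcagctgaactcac
KRTAP8-1 (chr21:30813275-30813524, minus strand): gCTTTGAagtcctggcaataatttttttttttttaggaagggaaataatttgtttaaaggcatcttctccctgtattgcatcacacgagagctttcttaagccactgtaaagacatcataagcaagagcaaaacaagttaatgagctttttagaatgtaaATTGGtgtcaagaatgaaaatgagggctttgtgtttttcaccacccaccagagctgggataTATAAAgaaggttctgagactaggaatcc
KRT10 (chr17:40822615-40822864, minus strand): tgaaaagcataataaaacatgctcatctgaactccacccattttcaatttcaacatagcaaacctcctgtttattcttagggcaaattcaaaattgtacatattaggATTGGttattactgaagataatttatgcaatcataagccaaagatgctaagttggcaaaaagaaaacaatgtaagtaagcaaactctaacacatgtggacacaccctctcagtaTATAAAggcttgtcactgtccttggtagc
KRT31 (chr17:41397609-41397858, minus strand): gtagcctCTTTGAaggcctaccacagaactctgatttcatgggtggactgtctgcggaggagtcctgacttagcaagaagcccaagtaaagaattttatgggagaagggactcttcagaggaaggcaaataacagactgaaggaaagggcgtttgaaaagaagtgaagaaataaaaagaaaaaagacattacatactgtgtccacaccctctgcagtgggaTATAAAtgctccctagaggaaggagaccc
KRTAP4-4 (chr17:41160749-41160998, minus strand): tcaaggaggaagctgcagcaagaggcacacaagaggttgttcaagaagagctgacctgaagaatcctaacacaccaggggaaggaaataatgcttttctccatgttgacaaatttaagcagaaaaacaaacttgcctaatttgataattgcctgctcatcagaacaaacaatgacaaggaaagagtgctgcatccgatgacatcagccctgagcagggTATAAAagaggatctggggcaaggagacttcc
KRT10, KRT31, KRTAP4-4 and KRTAP8-1 carry TATAAA shortly before the start, and KRTAP13-3 carries it further upstream. KRT8 has none of the listed letters in these bases, which lie inside the gene, and KRT9 has only the GC box, on the opposite strand. KRT31 and KRTAP8-1 carry the LEF1/TCF letters near the far end.

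Partners of keratin filaments are the desmosome and plakin proteins that anchor them, and all 18 examined had regions in both libraries, as had 93.6% of all protein-coding genes. Of their 121 shared sites, 16 were called lower in hTBLC (13.2%, against 12.1% near all genes) and 9 higher (7.44%, against 5.69%), with a median ratio of 0.88. Both shares were near those of all genes. PPL, periplakin, had 100 in primed and 29 in hTBLC at its gene end, a ratio of 0.26 (0.17 to 0.40). DSG2, the desmoglein of simple epithelia, had 172 and 90 at its gene end, a ratio of 0.48 (0.37 to 0.62). EVPL, envoplakin, had 83 and 45 at its strongest shared site, a ratio of 0.50 (0.34 to 0.72). In the other direction, EPPK1, epiplakin, had 10 and 62 at its strongest shared site, a ratio of 5.66 (2.88 to 12.4) and the largest of the list, although the highest pileup at its gene ends was 56 in primed and 17 in hTBLC. DST, dystonin, had 168 and 340, a ratio of 1.85 (1.53 to 2.24). DSP, desmoplakin, and JUP, plakoglobin, did not differ beyond counting error, with 136 and 138 and with 190 and 178. PKP3, a plakophilin, had a primed region of pileup 14 at its gene end and no hTBLC region there.

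Of the 84 shared sites of 15 other intermediate filament genes, 6 were called lower in hTBLC (7.14%, against 12.1% near all genes) and 10 higher (11.9%, against 5.69%), with a median ratio of 0.93, or 1.02 with no scaling. VIM, vimentin, the filament of mesenchymal cells, had 69 in primed and 136 in hTBLC at its gene end, a ratio of 1.80 (1.34 to 2.44). DES, desmin, the muscle filament, had 114 and 56 at its strongest shared site, a ratio of 0.45 (0.32 to 0.62). GFAP and BFSP2 had gene-end regions in hTBLC alone, with pileups of 12 and 22. For the 16 regulators of keratin genes, 9 of 102 shared sites were called lower (8.82%) and 6 higher (5.88%), with a median ratio of 0.89.

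Among those regulators, GRHL2, a transcription factor of epithelial genes, had a strongest shared site with 84 in primed and 42 in hTBLC, a ratio of 0.46 (0.31 to 0.67). The highest pileups at its gene ends were 87 in primed and 15 in hTBLC. Gene ends of GRHL3 had 87 and 10, of TFAP2A 58 and 25 and of HOXC13 33 and 8. Before scaling, gene ends of LEF1, MSX2, KLF4, TFAP2C and OVOL1 were higher in hTBLC. TP63, the factor of the stratified epithelial lineage, had 83 and 163 at its strongest shared site, a ratio of 1.79 (1.37 to 2.37), while at its gene end only primed had a region (pileup 20). ZNF750, an epidermal differentiation factor, had 9 and 24, a ratio of 2.44 (1.09 to 5.95), and at its gene end a primed region of pileup 19 with no hTBLC region. TCHH, trichohyalin of the inner root sheath, had the 1 call of the 3 in the epidermal differentiation complex that was higher in hTBLC, with 14 in primed and 46 in hTBLC, a ratio of 3.001 (1.62 to 5.91). SPRR3, a cornified envelope gene of that complex, had 22 and 11, a ratio of 0.46 (0.20 to 0.98). Gene ends with a region in 1 library alone were those of SPRR5 (pileup 9) and SPRR2B (14) in primed, and of SPRR2D (12), SPRR2A (7) and SPRR2F (11) in hTBLC. So was that of COL3A1, a fibroblast collagen, in hTBLC (14). The other fibroblast markers had gene ends in both libraries, with 90 in primed and 68 in hTBLC for COL1A1 and 31 and 31 for TWIST2. At the strongest shared sites the ratios were 1.45 (0.94 to 2.26) for COL3A1, 0.69 (0.50 to 0.96) for COL1A1 and 1.84 (1.36 to 2.52) for TWIST2. GATA3, CDX2 and TFAP2C, listed as trophectoderm markers with KRT7, had ratios of 1.53 (1.12 to 2.10), 1.03 (0.75 to 1.42) and 1.06 (0.76 to 1.48). These ratios are from their strongest shared sites. That of KRT7, with a ratio of 0.26, lies in its gene body within 1 kb of the lower-coordinate end. At the gene ends the highest pileups in primed and hTBLC were 49 and 39 for GATA3, 27 and 44 for CDX2 and 70 and 81 for TFAP2C.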

How the data were processed

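ATAC-seq was deposited for 2 libraries of WIBR3, 1 primed and 1 hTBLC, as 1 peak list each. Bowtie2, Picard, MACS2 and hg38 are listed in the submitters' processing notes. For versions, settings, the transposase offset and duplicates, the sources used here give nothing. Each peak in the authors' lists has a score, which was not used, a fold ratio of summit over local background, a −log10 p-value and a −log10 q-value. From the deposited fold and −log10 p of a peak, its pileup and background were solved, and pileups came out whole for 99.999% of primed and 99.998% of hTBLC peaks (tolerance 0.001 in −log10 p). On simulated data 100% of 20000 pileups were recovered.

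The lowest deposited −log10 p was 2.00 in primed and 2.83 in hTBLC, so the lists end at different thresholds. The last rank was 296005 in primed and 300000 in hTBLC. With both lists held to a −log10 p of at least 2.83, 65 sites were primed-only and 58 hTBLC-only, in place of 69 and 57. Ranks without a line numbered 252 and 327, and regions of those ranks count as absent. Chromosomes 1 to 22 and X were used, which left out 16 peaks of each library. Peaks were assigned to genes with the RefSeq gene table of GRCh38.p14, whose coordinates are those of hg38. Intervals are Clopper-Pearson for ratios, Poisson for pileups and Wilson for shares. Whether a pileup counts fragments or read ends is not given, and the units are not known to be independent molecules. Intervals thus cover counting error only, and they are too narrow if both ends of a fragment were counted.

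The members, classes and gene lists were chosen with earlier results of these data known. Named were the 4 simple keratins, the 15 other members of highest pileup, members with a shared site past the fold, members in 1 library alone at a −log10 q of at least 10, members with a promoter touched in 1 library alone, and genes of the other lists with a gene end in 1 library alone or a call at their strongest shared site. Others named, KRT1, KRT5, KRT13, KRT16, KRT17, KRT20, KRT23, KRT24, KRT39, KRT31, KRTAP5-6, KRTAP17-1, KRTAP4-4 and the other partners, filaments, regulators and markers, were chosen after their values were seen. Alternatives changed the window, overlap, threshold, scaling and measure. Python 3.11.15 with pandas 2.3.3, numpy 2.4.6, scipy 1.17.1 and matplotlib 3.10.9 was used.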

Additional observations from a re-analysis of the deposited data

How the results depend on the processing

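No paired analysis was possible because each group has 1 library. Counting gene bodies alone gave 30 genes with a primed and 34 with an hTBLC region. Of these genes, 8 had primed and 12 hTBLC regions alone, and 21 sites were primed-only and 24 hTBLC-only. With a window of 25 kb, 7 genes had primed and 3 hTBLC regions alone. With a reciprocal overlap of 50%, the shared part of primed regions was 43.9%, against 57.9% with any overlap. With peaks under a −log10 q of 5 dropped from each list, 20 genes had primed and 5 hTBLC regions alone. In the lists so cut, 22 sites were hTBLC-only, 32.4% of those in 1 library alone. At 10, 51 genes had an hTBLC region, 14 had primed and 5 hTBLC regions alone, 39 sites were primed-only and 12 hTBLC-only (23.5%), and 45.8% of primed regions were shared. By the authors' fold enrichments the ratio was 0.53 for KRT7 and 0.56 for KRT19. Read at the promoter window or gene end in place of their tallest site (1.33), the ratio was 0.47 for KRT8 and 0.52 for KRT18. Alternatives for the calls past the fold were chosen after seeing the data: fold enrichments gave 1 site higher and 13 lower in hTBLC, summits within 100 bp gave 0 higher, and leaving out ends of non-member genes gave 1 higher. In the other settings run, these values stayed within the limits set for no change. With no scaling, 10 of the 92 shared ratios moved to the other side of 1, among them those of KRT86 and KRT83 (0.996) and of KRTAP13-3 and KRTAP13-4 (0.9989). Pileups have a minimum of 6 in primed and 7 in hTBLC, so weaker sites cannot be seen in either list.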
